A study of Homo sapiens with 12 samples.

Results

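The genes described here encode 8 ATP-binding cassette (ABC) transporters of subfamily C, namely ABCC1, ABCC2, ABCC3, ABCC4, ABCC5, ABCC6, ABCC9 and ABCC10, and the subfamily G transporter ABCG2. They were chosen by gene symbol as the members of these families to describe, and they make up 9 of the 38611 genes in the tables. RNA was sequenced in 12 libraries, 3 in each of 4 groups. The groups were untreated parental DU145, DU145 selected in docetaxel, untreated parental PC3 and PC3 selected in docetaxel. DU145 and PC3 are established human prostate cancer cell lines that grow without added androgen, and docetaxel is a taxane that stabilises microtubules. Per the labels, docetaxel was raised stepwise from 10 nm/ml in DU145 and from 0.5 nm/ml in PC3, until the reported IC50 was 1800 nm/ml and 15 nm/ml, in units written here as the labels write them. All 4 groups were grown in the same serum-containing medium, and each line has 1 resistant subline. The labels leave out whether replicate libraries were grown as separate cultures, and the p-values below therefore rest on a spread between libraries that may be technical.

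ABC transporters use the energy of ATP to move substrates across membranes. ABCC1 (also called MRP1), ABCC2 (MRP2) and ABCC3 (MRP3) export drugs and conjugates with glutathione, glucuronate or sulfate. ABCC4 (MRP4) and ABCC5 (MRP5) also export cyclic nucleotides and nucleotide analogues, and ABCC10 (MRP7) is a pump known to carry taxanes. ABCC6 (MRP6) is needed for the release of ATP and pyrophosphate that keeps soft tissue from calcifying, whereas ABCC9 (SUR2) is no pump but the regulatory subunit of ATP-sensitive potassium channels. ABCG2, the breast cancer resistance protein, works as a pair of joined half-size transporters and carries many chemotherapeutics, though taxanes are poor substrates.

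The sequences upstream of 4 of these genes are shown because their transcripts rose in 1 or both lines. RefSeq (GRCh38.p14) gave windows for 7 of the 9 genes, and none for ABCC1 or ABCC3. Each line below is the 250 bases that precede a transcript start, written 5′ to 3′ on the strand of the gene. Capitals mark matches, on either strand, to any of 5 short motifs: the antioxidant response motif TGACNNNGC, the dioxin response core GCGTG, the hypoxia response core ACGTG, the GC box with the letters GGGCGG, and TATAAA, the core of the TATA box.
ABCC9 (chr12:21941427-21941676, minus strand): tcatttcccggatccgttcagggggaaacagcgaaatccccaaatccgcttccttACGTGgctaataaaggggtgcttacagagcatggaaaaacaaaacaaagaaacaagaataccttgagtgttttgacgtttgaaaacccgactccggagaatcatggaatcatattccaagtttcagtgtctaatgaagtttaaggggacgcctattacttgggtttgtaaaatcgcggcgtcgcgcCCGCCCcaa
ABCC2 (chr10:99782390-99782639, plus strand): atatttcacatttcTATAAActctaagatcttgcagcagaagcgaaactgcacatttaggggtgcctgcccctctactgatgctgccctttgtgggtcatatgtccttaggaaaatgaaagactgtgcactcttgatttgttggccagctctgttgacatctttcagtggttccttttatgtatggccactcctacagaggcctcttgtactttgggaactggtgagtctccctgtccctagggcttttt
ABCC4 (chr13:95301452-95301701, minus strand): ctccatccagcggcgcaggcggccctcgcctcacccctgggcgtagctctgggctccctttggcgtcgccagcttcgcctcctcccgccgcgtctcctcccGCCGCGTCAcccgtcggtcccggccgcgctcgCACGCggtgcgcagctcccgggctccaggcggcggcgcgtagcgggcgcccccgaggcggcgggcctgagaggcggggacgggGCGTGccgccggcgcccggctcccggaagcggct
ABCC10 first window (chr6:43427613-43427862, plus strand): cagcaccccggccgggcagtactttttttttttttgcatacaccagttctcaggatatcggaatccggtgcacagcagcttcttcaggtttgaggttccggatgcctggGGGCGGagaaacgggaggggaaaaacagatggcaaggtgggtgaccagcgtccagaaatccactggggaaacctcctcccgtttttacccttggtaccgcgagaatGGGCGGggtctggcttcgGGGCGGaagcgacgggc
ABCC10 second window (chr6:43427291-43427540, plus strand): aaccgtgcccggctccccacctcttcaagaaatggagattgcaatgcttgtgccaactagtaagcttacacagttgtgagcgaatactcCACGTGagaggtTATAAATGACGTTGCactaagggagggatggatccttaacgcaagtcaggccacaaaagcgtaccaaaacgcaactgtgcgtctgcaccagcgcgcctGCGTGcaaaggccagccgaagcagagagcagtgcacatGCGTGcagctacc
The ABCC9 window held 1 ACGTG at position -195 from the transcript start and 1 GC box on the other strand at -9. The ABCC2 window was 45.6% G or C and held 1 TATAAA far from the start, whereas that of ABCC4 was 80.4% G or C and held 1 TGACNNNGC and 2 GCGTG. The ABCC10 windows belong to 2 annotated starts: the first held 3 GC boxes, and the second held 1 TGACNNNGC directly after a TATAAA, 2 GCGTG, and a CACGTG that counts as ACGTG on both strands. Over all 35116 windows of 250 bases, 10.9% held TGACNNNGC, 32.2% GCGTG, 18.5% ACGTG, 42.6% GGGCGG and 10.7% TATAAA. These matches describe letters only, and no binding was measured.

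The library totals lay between 62513103 and 72530254 counts, and 25695 to 26401 genes had a count. The SD of the log2 difference between libraries of a group, over the 12202 genes with a mean of at least 5 CPM, was 0.233 to 0.257 in the other groups and 0.269 to 0.291 in resistant PC3, where library 1 lay farthest from the others. Without that library the same number of members, 7, was called in PC3. CTNNA1, the alpha-catenin known to be lost in PC3, was at 519 CPM (counts scaled to the library total) in parental DU145 and 383 in resistant DU145, against 2.92 and 2.23 in parental and resistant PC3. Several properties of the libraries moved with resistance, and their part in the results on the transporters was not tested. The mitochondrial share of counts went from 3.98 to 4.30% up to 7.04 to 7.14% in DU145, and from 5.68 to 6.04% down to 3.46 to 3.55% in PC3. The summed level of 5 epithelial markers (EPCAM, KRT8, KRT18, KRT19 and CDH1) went from 896 to 934 CPM up to 1530 to 1569 CPM in DU145, and from 1031 to 1044 CPM down to 551 to 585 CPM in PC3. All 5 fell in PC3, and in DU145 4 rose while KRT19 fell from 213 to 172 CPM (edgeR adjusted p = 3.72e-05). In PC3 the sum of 5 fibroblast and smooth muscle genes went from 102 to 110 CPM down to 11.5 to 16.9 CPM, nearly all of it COL1A1, and that of 4 endothelial genes from 177 to 232 CPM down to 53.7 to 76.6 CPM. The fall of the endothelial sum was that of KDR, since PECAM1 rose from 18.3 to 27.3 CPM (edgeR adjusted p = 0.0274) and VWF from no count to 0.234 CPM (edgeR adjusted p = 0.0422). In DU145 these sums were 10.2 to 15.1 and 4.97 to 8.86 CPM for the first list, and under 1 CPM in every library for the second. Among 5 leukocyte genes, CD68 supplied nearly all of the sum in every group, and it rose from 17.1 to 28.8 CPM in DU145 (edgeR adjusted p = 0.0122) and from 52.4 to 79.0 CPM in PC3 (edgeR adjusted p = 0.0317). PTPRC was at 0 in both DU145 groups, and CD3E was at 0 in both PC3 groups.

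Resistance went with a different set of changes in each line. In DU145, ABCC3, ABCC9 and ABCC10 rose, no member fell and 6 did not pass the test. In PC3, ABCC2, ABCC4 and ABCC9 rose, ABCC3, ABCC5, ABCC6 and ABCC10 fell, and ABCC1 and ABCG2 did not pass. ABCC9 rose in both lines, and ABCC3 and ABCC10 went in opposite directions. Tests were edgeR's quasi-likelihood F test on the counts, with Benjamini-Hochberg adjustment over all 24128 genes tested, all 9 members among them, and a gene was called at an adjusted p under 0.05. Of all genes tested, 39.6% were called in DU145 (18.9% higher and 20.7% lower) and 44% in PC3 (22.4% higher and 21.6% lower). Among genes with a mean of at least 1 CPM, as all members but ABCG2 have, 55.8% were called in DU145 and 61.1% in PC3. The 3 of 9 members in DU145 and 7 of 9 in PC3 are read against these backgrounds, in which such calls were common. The median log2 change was 0.34 over the 9 members in DU145 and -0.24 over the 8 with a fold in PC3, where the median of all genes was 0 in both lines.

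**Figure D1:**
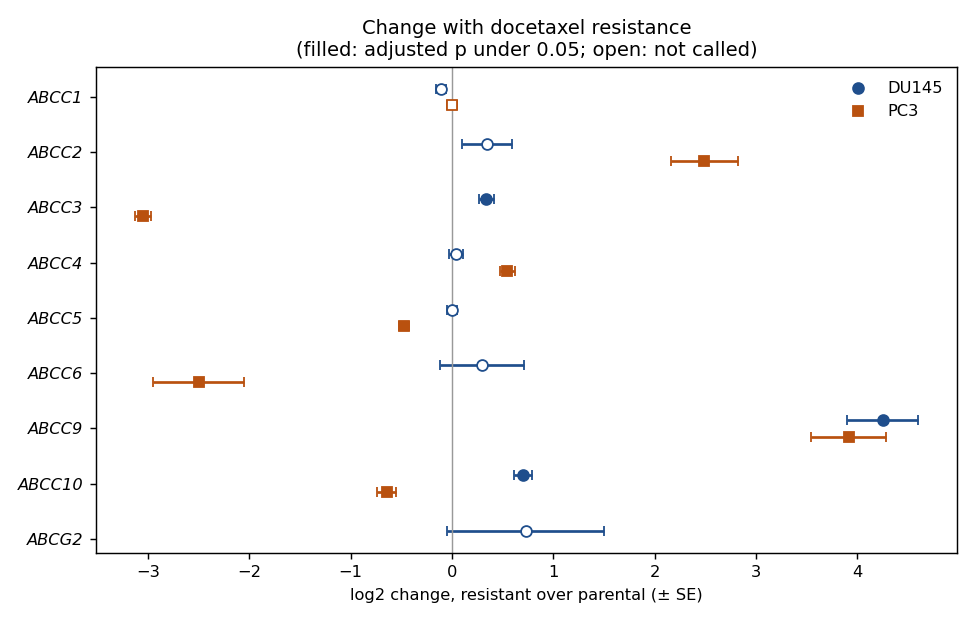
Log2 change of each transporter, resistant over parental, in DU145 (circles) and PC3 (squares), with the standard error of 12 libraries fitted together; filled symbols passed an adjusted p of 0.05. ABCC9 lies far to the right in both lines, ABCC3 and ABCC10 lie on opposite sides of 0, and ABCG2 has no PC3 value because its counts there were at or near the floor.

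ABCC9 showed the largest rise of the members in both lines, 19.1-fold in DU145 and 15.1-fold in PC3. The gene (ENSG00000069431) spans chromosome 12, 21797401 to 21942529, on the minus strand. Its levels in FPKM, which are counts scaled to gene length and library total, were 0.0780, 0.0767 and 0.0787 in the parental DU145 libraries and 1.55, 1.51 and 1.33 in the resistant ones. In PC3 they were 0.0127, 0.0408 and 0.00884 in the parental and 0.306, 0.346 and 0.267 in the resistant libraries. The resistant libraries of each line lay above all parental ones, and the parental PC3 values rested on 15, 46 and 10 counts. The log2 change was 4.25 ± 0.35 (SE) in DU145 (edgeR adjusted p = 1.49e-07) and 3.92 ± 0.37 in PC3 (edgeR adjusted p = 4.97e-07). Without parental PC3 library 2 the PC3 change was 4.86. The difference between the lines was -0.34 ± 0.49 and did not pass (edgeR adjusted p = 0.653). This comparison depended on the scale, since limma on log2(FPKM + 0.1) gave -1.38 with an adjusted p of 0.00157. That offset of 0.1 exceeds every parental value and so shrinks the folds.

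The rise of ABCC9 began from a low level. Its mean of 1.46 FPKM in resistant DU145 was above that of 61.1% of detected genes, compared with 23.3% in parental DU145, and in resistant PC3 its 0.306 FPKM was above 45.4%. The pore subunits that pair with ABCC9 in potassium channels were not called higher in either line. KCNJ8, its usual partner in vessels, was at 0.0205 CPM in parental and 0 in resistant DU145, and at 1.898 and 1.206 CPM in PC3 (log2 change -0.65 ± 0.69, edgeR adjusted p = 0.501). KCNJ11 was at 2.22 and 2.15 CPM in DU145 and fell by 2.40 ± 0.36 on the log2 scale in PC3, from 2.36 to 0.445 CPM (edgeR adjusted p = 4.68e-05).

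ABCC3 fell 8.26-fold in PC3 and rose 1.27-fold in DU145. The gene (ENSG00000108846) spans chromosome 17, 50634777 to 50692253, on the plus strand. Parental PC3 held 35.2, 34.3 and 39.8 FPKM and resistant PC3 held 3.91, 4.86 and 4.11 FPKM. Parental DU145 held 11.6, 13.1 and 12.9 FPKM and resistant DU145 held 15.8, 15.6 and 15.3 FPKM. The groups did not overlap in either line, and the order of levels was parental PC3, resistant DU145, parental DU145 and resistant PC3, each apart from the next. The log2 change was -3.05 ± 0.08 in PC3 (edgeR adjusted p = 3.21e-13) and 0.34 ± 0.07 in DU145 (edgeR adjusted p = 0.00145), and the difference between the lines was -3.39 ± 0.11 (edgeR adjusted p = 2.09e-12). In parental PC3 ABCC3 was above 96.5% of detected genes, and in resistant PC3 above 74.3%.

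ABCC10, the taxane-carrying pump, also moved in opposite directions, by smaller steps. The gene (ENSG00000124574) spans chromosome 6, 43427366 to 43450427, on the plus strand. Its levels were 5.26, 4.16 and 4.24 FPKM in parental DU145 and 7.17, 7.15 and 7.56 FPKM in resistant DU145. In PC3 they were 4.33, 4.12 and 4.18 FPKM in parental and 2.82, 2.41 and 2.63 FPKM in resistant libraries. The parental lines overlapped, all resistant DU145 libraries lay above them, and all resistant PC3 libraries lay below. The rise in DU145 was 1.63-fold (log2 change 0.70 ± 0.09, edgeR adjusted p = 1.3e-05) and the fall in PC3 1.56-fold (log2 change -0.64 ± 0.09, edgeR adjusted p = 2.89e-05). The changes differed between the lines by -1.34 ± 0.13 (edgeR adjusted p = 4.44e-07). ABCC10 overlaps DLK2 on the other strand at its 3′ end, over 0.977% of its exonic bases, and the counting strand is not given in the sources used here. DLK2 was no higher than 2.41 CPM in any group mean, against 21.9 to 58.4 CPM for ABCC10.

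ABCC2 rose 5.62-fold in PC3 from a very low level. The gene (ENSG00000023839) spans chromosome 10, 99782640 to 99852044, on the plus strand. In parental PC3 it was at 0.0245, 0.0396 and 0.110 FPKM, from 13, 20 and 56 counts, and in resistant PC3 at 0.310, 0.291 and 0.352 FPKM. In DU145 it was at 4.03, 3.79 and 3.64 FPKM in parental and 5.04, 4.63 and 4.66 FPKM in resistant libraries. The groups were apart in both lines, and the resistant PC3 libraries were still all below the parental DU145 ones. The PC3 change was 2.49 ± 0.33 on the log2 scale (edgeR adjusted p = 3.95e-05), and 3.35 without parental PC3 library 3. The DU145 change of 0.35 ± 0.24 did not pass (edgeR adjusted p = 0.306), but it did in edgeR with the DU145 libraries alone (0.36, adjusted p = 0.00176) and without parental PC3 library 3 (0.35, adjusted p = 0.0216), and with limma on log2(FPKM + 1) (0.26, adjusted p = 0.00564). The changes differed between the lines by 2.14 ± 0.41 (edgeR adjusted p = 0.000938). The call was not made with limma on log2(FPKM + 1), where the difference was 0.06 (adjusted p = 0.64). That offset of 1 exceeds every PC3 value and so shrinks the PC3 change. Without parental PC3 library 3 this difference was 3.00 by edgeR.

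ABCC4 rose 1.46-fold in PC3 and showed little difference in DU145. The gene (ENSG00000125257) spans chromosome 13, 95019835 to 95301451, on the minus strand. Parental PC3 held 4.57, 4.68 and 4.87 FPKM and resistant PC3 held 6.74, 6.45 and 6.92 FPKM, with no overlap. Parental DU145 held 11.7, 10.9 and 10.6 FPKM and resistant DU145 held 11.4, 12.3 and 9.95 FPKM, which overlapped. The log2 change was 0.55 ± 0.07 in PC3 (edgeR adjusted p = 1.1e-05) and 0.04 ± 0.07 in DU145 (edgeR adjusted p = 0.732). The difference between the lines passed, at 0.51 ± 0.10 (edgeR adjusted p = 0.000681).

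ABCC5, the other exporter of cyclic nucleotides, fell 1.39-fold in PC3. The gene (ENSG00000114770) spans chromosome 3, 183919934 to 184017939, on the minus strand. Its levels were 14.4, 14.1 and 14.3 FPKM in parental and 9.62, 9.84 and 10.6 FPKM in resistant PC3. In DU145 they were 6.41, 6.42 and 6.61 FPKM in parental and 6.69, 6.24 and 6.23 FPKM in resistant libraries. All PC3 libraries lay above all DU145 libraries, and only the PC3 groups were apart from each other. The log2 change was -0.47 ± 0.05 in PC3 (edgeR adjusted p = 4.91e-07) and 0.00 ± 0.05 in DU145 (edgeR adjusted p = 0.987), with a difference of -0.48 ± 0.07 between the lines (edgeR adjusted p = 2.34e-05).

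ABCC6 fell 5.65-fold in PC3, although its level was low everywhere. The gene (ENSG00000091262) spans chromosome 16, 16148928 to 16223522, on the minus strand. Parental PC3 held 0.381, 0.375 and 0.268 FPKM and resistant PC3 held 0.0958, 0.0538 and 0.0260 FPKM, from 46, 24 and 13 counts. Parental DU145 held 0.236, 0.368 and 0.382 FPKM and resistant DU145 held 0.330, 0.552 and 0.306 FPKM. The 3 resistant PC3 libraries lay below the 9 others, which overlapped. The log2 change was -2.50 ± 0.45 in PC3 (edgeR adjusted p = 0.000248) and 0.30 ± 0.42 in DU145 (edgeR adjusted p = 0.651), with a difference of -2.79 ± 0.61 between the lines (edgeR adjusted p = 0.00142). ABCC6 has near-identical pseudogene copies with which it may share reads, so its values are uncertain. The copy ABCC6P1 was at 0.924, 0.986, 0.0512 and 0 CPM, and ABCC6P2 at 0.333, 0.0454, 0.133 and 0.0521 CPM, in parental and resistant DU145 and in parental and resistant PC3. ABCC6 itself was at 2.21, 2.71, 2.37 and 0.418 CPM in the same order.

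ABCC1 was among the most abundant members and did not pass in either resistance comparison. The gene (ENSG00000103222) spans chromosome 16, 15949577 to 16143074, on the plus strand, and ends 5853 bases from the end of ABCC6, which faces it. It was at 15.1, 14.7 and 15.6 FPKM in parental and 13.2, 13.5 and 14.8 FPKM in resistant DU145. It was at 11.5, 11.8 and 12.3 FPKM in parental and 11.5, 11.3 and 11.8 FPKM in resistant PC3. The resistance groups overlapped in each line, and all DU145 libraries lay above all PC3 libraries. The log2 change was -0.10 ± 0.05 in DU145 (edgeR adjusted p = 0.114), where it passed without resistant library 3 (-0.15, edgeR adjusted p = 0.0251). In PC3 it was 0.00 ± 0.05 (edgeR adjusted p = 1.0).

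ABCG2 was low in DU145 and at or near the detection floor in PC3. The gene (ENSG00000118777) spans chromosome 4, 88090150 to 88231628, on the minus strand. Parental DU145 held 0.251, 0.245 and 0.209 FPKM and resistant DU145 held 0.548, 0.315 and 0.285 FPKM. The groups were apart, with resistant library 1 well above the others, but the change of 0.73 ± 0.78 did not pass (edgeR adjusted p = 0.527). The PC3 libraries held 7, 0 and 0 counts in the parental and 0, 3 and 0 counts in the resistant group, so no fold is given for resistance in PC3. A floor of 3 counts over a group corresponds to 0.0152 CPM in parental and 0.0145 CPM in resistant PC3. With 258 counts against 7, ABCG2 was 37.1 times higher in parental DU145 than in parental PC3, with an exact conditional 95% interval of 17.8 to 93.2. With 420 counts against 3, it was 148 times higher in resistant DU145 than in resistant PC3 (50.3 to 721). These intervals cover counting error only. Both ratios use raw library totals, whereas the edgeR fit, with scaled totals, gave 34.6-fold and 124-fold. At low counts the variance between libraries of a group was 7.63 to 8.43 times the mean, so intervals and floors that assume independent counts are too narrow and too low.

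**Figure D2:**
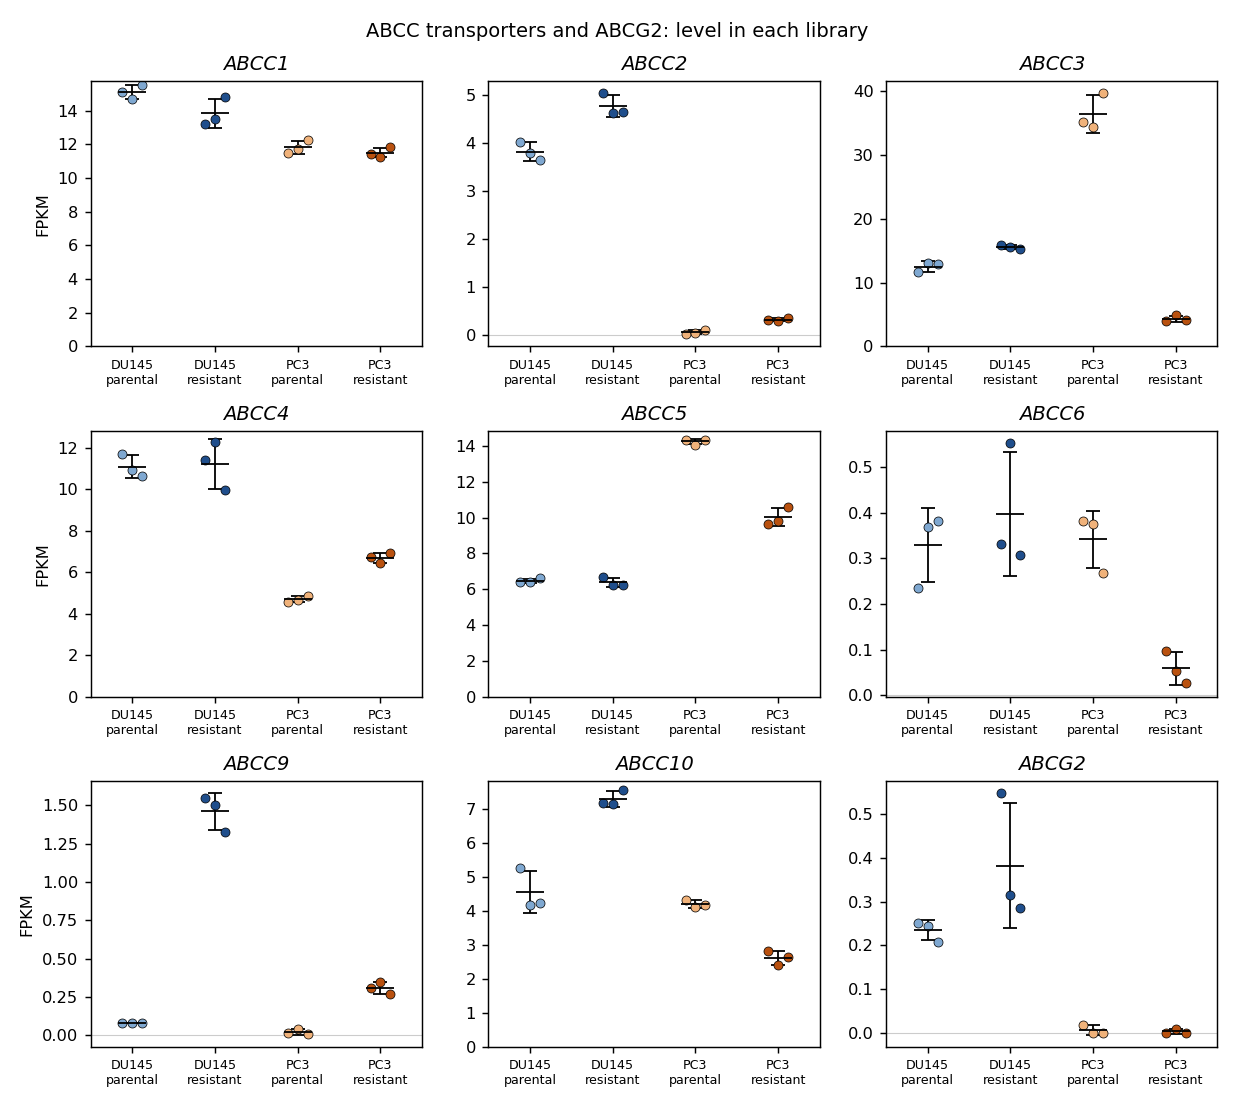
FPKM of each transporter in each library (points), with the mean and SD of 3 libraries per group (horizontal bar and whiskers); each panel has its own linear axis. ABCC9 rises in both lines, ABCC3 and ABCC10 part between the resistant lines, and the ABCG2 values of PC3 lie at 0 or just above it.

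The makeup of the family, which per-length values allow to be compared between genes, shifted most in PC3. The summed level of the 9 members was 71.9 ± 3.45 FPKM (SD, n = 3) in parental and 35.8 ± 0.78 FPKM in resistant PC3, and ABCC3 alone made up 50.6% ± 1.6 of the first sum and 11.99% ± 1.46 of the second. Without ABCC3 the sums were 35.4 ± 0.52 and 31.5 ± 0.98 FPKM. In resistant PC3 ABCC1 came first with 32.1% ± 0.4 of the sum, followed by ABCC5 with 27.9% ± 0.8 and ABCC4 with 18.7% ± 0.5. In DU145 the sum was 54.2 ± 0.47 FPKM in parental and 61.3 ± 0.81 FPKM in resistant cells. There ABCC1, ABCC3 and ABCC4 led in both groups, with ABCC1 first at 27.9% ± 0.7 in parental cells and ABCC3 first at 25.4% ± 0.2 in resistant cells. ABCC10 went from 8.39% ± 1.06 to 11.9% ± 0.54 of the DU145 sum and passed ABCC5 in rank. ABCC9 went from the last rank to the seventh in DU145, at 2.38% ± 0.16 of the sum in resistant cells. Its shares may read low because of the gene length used for its FPKM.

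**Figure D3:**
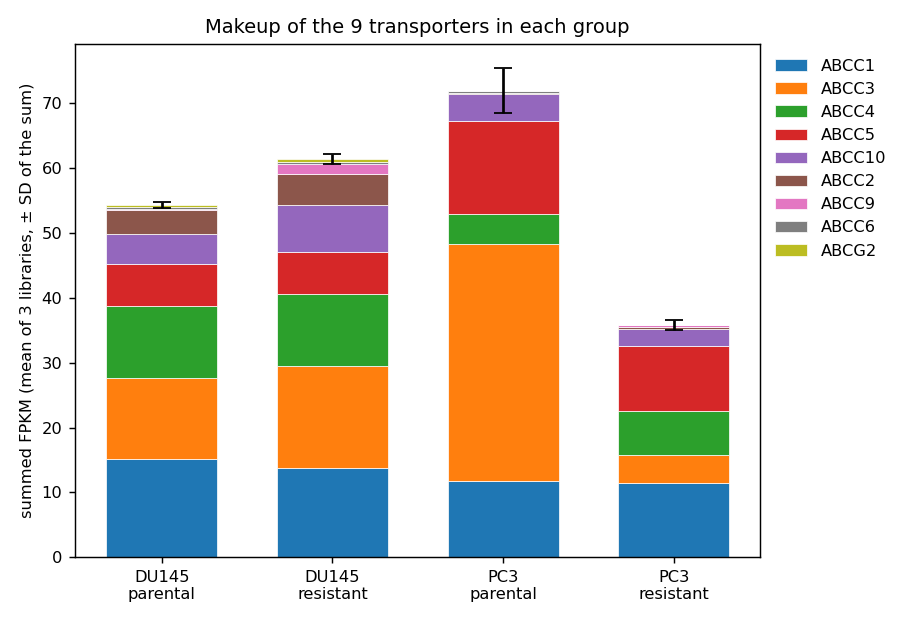
Summed FPKM of the 9 transporters by group, each bar stacked by gene from the mean of 3 libraries, with whiskers for the SD of the sum. The ABCC3 segment falls from 36.4 to 4.30 FPKM between parental and resistant PC3, while the other segments change by much less.

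The lines were also compared with each other, before and after selection. These comparisons use the same libraries as the resistance comparisons, so they are given beside them and not as further support. In the parental lines ABCC3 and ABCC5 were higher in PC3, 5 members (ABCC1, ABCC2, ABCC4, ABCC9 and ABCG2) were lower, and ABCC6 and ABCC10 did not pass, against 60.3% of all genes called (30.9% higher and 29.5% lower in PC3). The largest of these differences with counts in every library was that of ABCC2, which was 63.7-fold lower in PC3 (log2 difference -5.99 ± 0.33, edgeR adjusted p = 4e-09, and -6.85 without parental PC3 library 3). In the resistant lines all 9 members differed, 8 of them lower in PC3 and only ABCC5 higher, against 59.8% of all genes (30.6% higher and 29.1% lower). ABCC3 went from 3.01-fold higher in parental PC3 to 3.48-fold lower in resistant PC3 than in DU145 cells of the same kind. ABCC10 went from a log2 difference of -0.07 ± 0.09 to -1.41 ± 0.09, and that of ABCC9 was -1.86 ± 0.37 in the parental and -2.19 ± 0.31 in the resistant lines. The parental difference of ABCC9 was -2.81 without parental PC3 library 2, and it was not called with limma on log2(FPKM + 1) (-0.08, adjusted p = 0.292). That offset of 1 far exceeds the parental levels of ABCC9, so it shrinks any difference between them. The interaction term tests whether the change from parental to resistant cells differed between PC3 and DU145. It was called for 6 members, against 42.1% of all genes (22.1% higher and 20% lower in PC3). It was not called for ABCC1 (0.10 ± 0.07, edgeR adjusted p = 0.272) or ABCC9, and ABCG2 has no value. Each line has 1 resistant subline and the docetaxel doses differed, so line, selection and subline cannot be told apart in this term.

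The genes next to each transporter were examined to see whether they moved with it. The 5 nearest genes on each side with a mean of at least 1 CPM were taken, among which calls were common: 55.8% of all such genes were called in DU145 (26.4% higher and 29.4% lower) and 61.1% in PC3 (31.6% higher and 29.5% lower). Around ABCC10, 7 of 10 neighbours rose and none fell in DU145 (median log2 change 0.55), and none rose and 6 fell in PC3 (median -0.73). The nearest were ZNF318, a zinc finger gene (0.53 ± 0.08 in DU145 and -0.18 ± 0.08 in PC3), and DLK2, a Notch-related membrane protein (0.24 ± 0.36 and -1.20 ± 0.36). The largest change there was the rise of the receptor PTK7 in DU145, by 5.01 ± 0.12, a gene singled out after its values were seen. Around ABCC3, 8 of 10 neighbours fell and none rose in PC3 (median -0.80), whereas 2 rose and 2 fell in DU145 (median 0.12). The adjacent genes there were the calcium channel CACNA1G (-1.22 ± 0.68 in PC3, edgeR adjusted p = 0.169) and ANKRD40 (-0.34 ± 0.05, edgeR adjusted p = 1.96e-05), both changing less than ABCC3 itself.

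Around ABCC9, 6 neighbours rose and 1 fell in PC3 (median 0.65), and 3 rose and 6 fell in DU145 (median -0.35). Its flanking genes LDHB, a lactate dehydrogenase subunit (0.15 ± 0.04 in DU145 and 0.63 ± 0.04 in PC3), and CMAS, which activates sialic acid (0.06 ± 0.07 and 0.67 ± 0.07), changed far less than ABCC9. Larger rises, singled out after their values were seen, were those of SPX in DU145 (3.14 ± 0.71, and 0.83 ± 0.59 in PC3) and BCAT1 in PC3 (2.89 ± 0.13). BCAT1, 2867 kb away, fell by 1.24 ± 0.10 in DU145. Around ABCC5, 5 fell and 1 rose in both lines, with medians of -0.15 in DU145 and -0.75 in PC3. Of its flanking genes the mitochondrial protease PARL was at -0.07 ± 0.16 in both lines, and the translation factor subunit EIF2B5 at -0.23 ± 0.05 in DU145 and 0.19 ± 0.05 in PC3. Around ABCC2, 2 rose and 1 fell in PC3 (median 0.08), and the flanking CUTC and DNMBP were at 0.06 ± 0.09 and 0.15 ± 0.09 there. Around ABCC4, 5 rose and 4 fell in PC3 (median 0.21), with changes from -2.46 for the flanking DZIP1 to 2.93, and the other flanking gene, SOX21-AS1, at 2.66 ± 0.54. Around ABCG2, none rose and 5 fell in DU145 (median -0.49), with the flanking PKD2 at 0.01 ± 0.07 and PPM1K at -1.70 ± 0.22. ABCC6 and ABCC1 are each other's neighbour, and of their outer neighbours CEP20 rose by 0.59 ± 0.08 and NOMO3 was at 0.08 ± 0.08 in PC3.

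**Figure D4:**
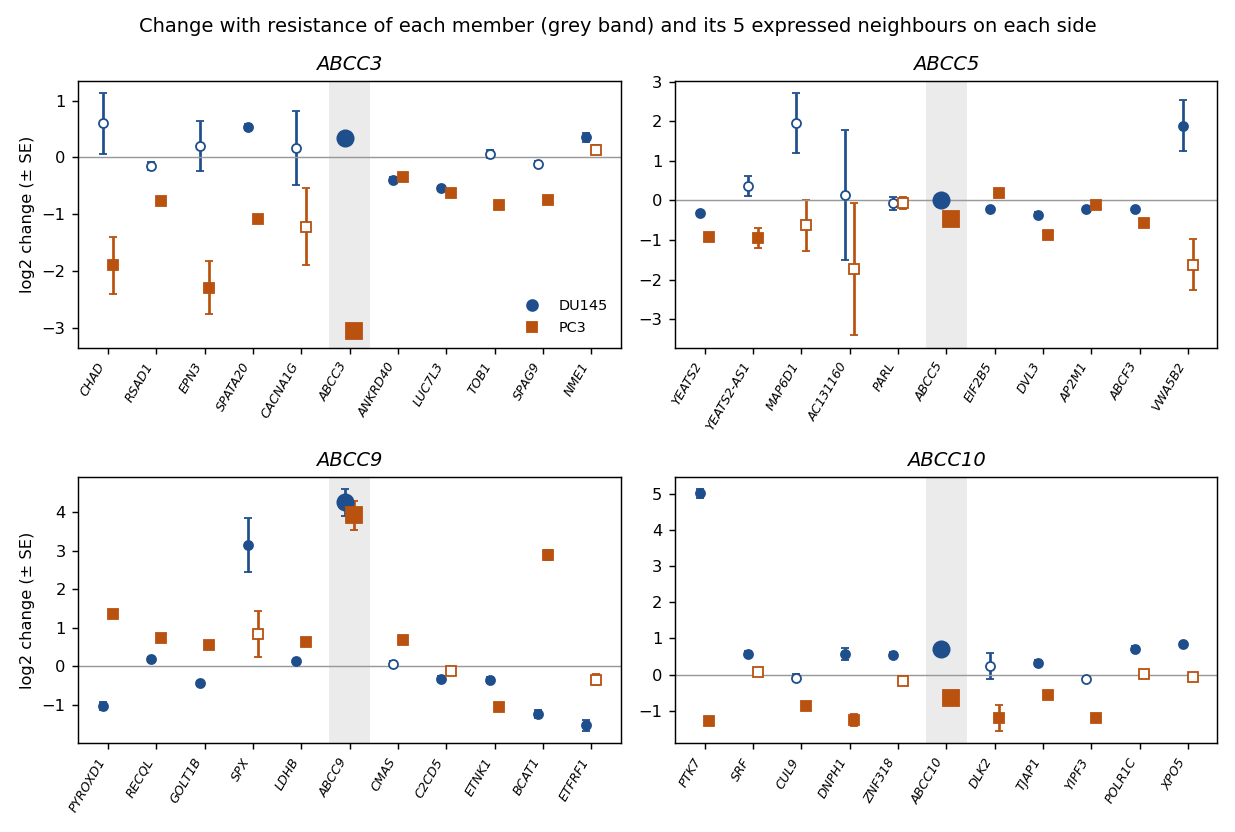
Log2 change with resistance (with SE) of ABCC3, ABCC5, ABCC9 and ABCC10 (large symbols on the grey band) and of the 5 expressed genes on each side in chromosomal order, evenly spaced and not to genomic scale; circles are DU145, squares are PC3, and filled small symbols passed an adjusted p of 0.05. The PC3 values around ABCC3 lie below 0 except for NME1, and ABCC9 stands above its neighbours in both lines.

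For each member called with resistance, the 3 genes most like it were found by Pearson's r over the 12 libraries in log2(CPM + 0.5), among 12202 genes with a mean of at least 5 CPM. The 12 points form 4 groups of 3, so r describes a shared pattern over groups, and no test is attached. For ABCC3 these were the lipid droplet protein PLIN2 (r = 0.994), the Wnt pathway repressor TCF7L1 (0.993) and the cofilin phosphatase SSH3 (0.986). TCF7L1 went from 4.37 to 6.68 CPM in DU145 and from 18.5 to 1.27 CPM in PC3. For ABCC9 they were the spindle checkpoint kinase BUB1B (0.992), PAK1IP1 (0.988) and the actin oxidase MICAL2 (0.983). BUB1B went from 105 to 176 CPM in DU145 and from 95.9 to 133 CPM in PC3, a far smaller rise than that of ABCC9. For ABCC10 they were the membrane protein CEMIP2 (0.985), SCRN1 (0.978) and the pseudogene GOLGA2P5 (0.978), and CEMIP2 went from 50.4 to 187 CPM in DU145 and from 47.6 to 11.7 CPM in PC3. For ABCC2 they were PELP1 (0.997), DENND2D (0.996) and TRIP10 (0.995). For ABCC4 they included CEP78 (0.991) and SS18 (0.991). For ABCC5 they were the prostaglandin-degrading enzyme HPGD (0.996), TFPT (0.996) and the protease TLL1 (0.995), and HPGD went from 291 to 24.4 CPM in PC3 while it was below 0.4 CPM in both DU145 groups. For ABCC6 the likeness was lower, with CHP1 (0.946), ABHD15 (0.946) and LRRC37A4P (0.942).

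The other ABC transporters are the relatives against which these members are read. Beside the calls in these and the later lists, 39.6% of all tested genes were called in DU145 and 44% in PC3. Among genes with a mean of at least 1 CPM these shares were 55.8% and 61.1%. Of 8 other ABCC and ABCG genes 4 were tested, of which 1 rose and 1 fell in DU145 (median log2 change -0.17). In PC3 2 fell and none rose (median -2.93), and 2 of the 4 had no count in 1 of the PC3 groups. The cholesterol exporter ABCG1 fell in both lines, by 4.11 ± 0.83 on the log2 scale in DU145 and 5.27 ± 0.65 in PC3. The DU145 fall rested on 77 summed counts in parental and 4 in resistant cells, near the floor, and the PC3 fall went from 8.53 to 0.221 CPM. ABCC11, an exporter of cyclic nucleotides and lipophilic anions, rose by 1.77 ± 0.58 in DU145. ABCG4 had no count in resistant PC3, against 3.22 CPM in parental PC3, which was 222-fold above a floor of 3 counts. Of 12 ABCA lipid transporters 3 rose and 3 fell in DU145 (median 0.25), and 1 rose and 7 fell in PC3 (median -1.20). ABCA4, known from photoreceptors, rose by 4.28 ± 1.23 in DU145, from 0.0722 ± 0.125 (SD) to 1.47 CPM, and fell by 4.98 ± 1.13 in PC3. Its parental DU145 level rested on 15 summed counts. The cholesterol transporter ABCA1 rose by 1.09 ± 0.14 in DU145, where ABCA13 fell by 1.03 ± 0.15. In PC3 ABCA8 fell by 2.81 ± 0.73 and the surfactant lipid transporter ABCA3 by 1.43 ± 0.07.

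Of 10 tested ABCB genes 3 rose and 2 fell in DU145 (median 0.02), and 4 rose and 3 fell in PC3 (median -0.13). The taxane pump ABCB1 (P-glycoprotein) went from 0.707 ± 0.471 to 70.9 ± 6.91 CPM in DU145 and was at 0.121 and 0.0372 CPM in parental and resistant PC3. The antigen peptide transporter subunits TAP1 (1.37 ± 0.09) and TAP2 (0.85 ± 0.05) also rose in DU145. In PC3 the porphyrin transporter ABCB6 fell by 2.03 ± 0.24, TAP1 by 1.09 ± 0.09 and ABCB9 by 0.58 ± 0.15. Of 8 genes of the ABCD, ABCE and ABCF families 5 rose and 1 fell in DU145 (median 0.28), and 3 rose and 3 fell in PC3 (median 0.34). ABCF1 (0.70 ± 0.05) and ABCE1 (0.34 ± 0.05) were among those that rose in DU145, and ABCE1 (1.18 ± 0.05), ABCD4 (-1.18 ± 0.07) and ABCD3 (0.61 ± 0.06) showed the largest called changes in PC3. These ABCE and ABCF proteins act in translation and carry nothing across membranes.

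**Figure D5:**
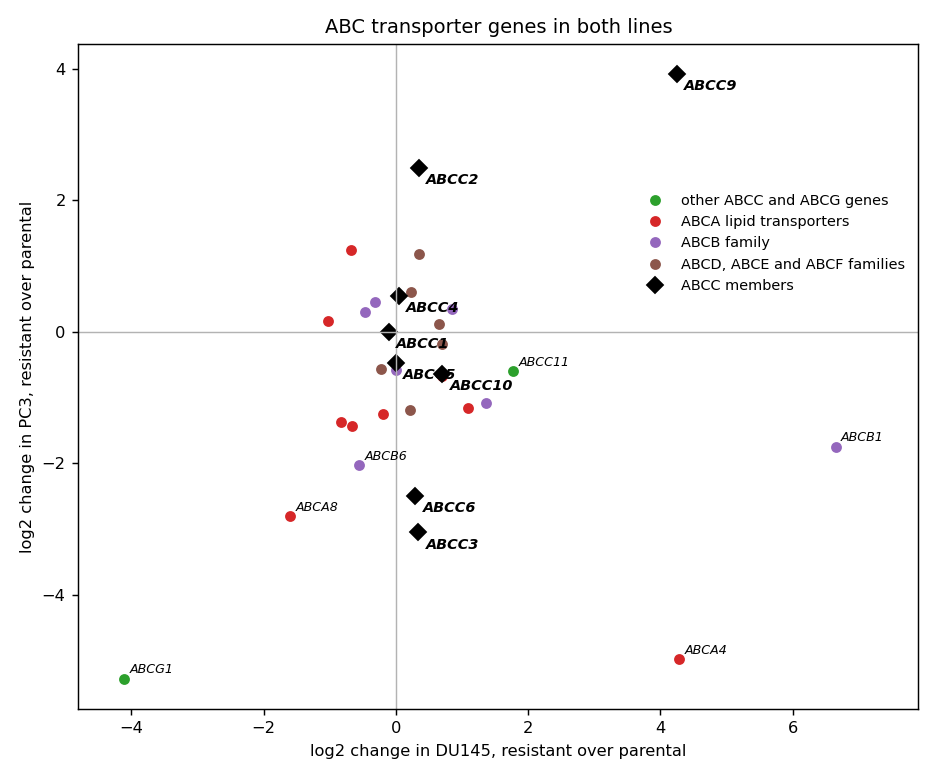
Log2 change with resistance in DU145 (horizontal) and PC3 (vertical) of the 8 ABCC members (black diamonds) and of other ABC genes that reached 1 CPM in some group and had more than 3 counts in every group (circles, coloured by family). ABCC9 stands alone at the upper right, ABCB1 far right, and ABCA4 at the lower right.

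Substrate-forming enzymes and known regulators of these pumps were read from lists of pathway genes. The background shares of 39.6% called in DU145 and 44% in PC3 apply to these lists as well. Of 12 glutathione synthesis and turnover genes 4 rose and 5 fell in DU145 (median -0.26), and 7 rose and 5 fell in PC3 (median 0.31). The cystine carrier SLC7A11 fell in both lines (-1.10 ± 0.10 and -1.38 ± 0.11 in DU145 and PC3), as did the glutathione-degrading CHAC1 (-1.21 ± 0.13 and -1.17 ± 0.13). GGCT rose by 0.83 ± 0.09 in DU145. GCLM, a subunit of the rate-limiting enzyme of glutathione synthesis, fell by 0.52 ± 0.07 in DU145 and rose by 1.61 ± 0.08 in PC3, where GGT7 fell by 2.17 ± 0.18 and GGT1 by 1.92 ± 0.48. Of 14 tested glutathione S-transferases 3 rose and 7 fell in DU145 (median -0.26), and 2 rose and 6 fell in PC3 (median -0.09). GSTM2 fell by 1.80 ± 0.10 and MGST3 by 0.68 ± 0.10 in DU145, and in PC3 GSTO2 fell by 2.73 ± 0.18 and GSTT2B by 1.20 ± 0.31. GSTA4 rose by 0.89 ± 0.14 in DU145 and fell by 1.82 ± 0.14 in PC3. Members of the GSTM and GSTT groups have close copies with which they may share reads.

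Of 9 tested genes of a list of UDP-glycosyltransferases (UGT genes), sulfotransferases and the glucuronate-supplying UGDH, 2 rose and 2 fell in DU145 (median 0.00, or -0.64 without 3 genes at or under the floor), and 3 rose and 3 fell in PC3 (median 0.93). In DU145 the sulfotransferase SULT4A1 rose from 0.0657 to 2.20 CPM, while SULT1A1 fell by 0.82 ± 0.26 and UGT8, which attaches galactose to ceramide, by 0.81 ± 0.08. In PC3 SULT1B1 went from no count to 1.28 CPM, 84.3-fold above a floor of 3 counts. SULT1C4 and SULT2B1 went to no count there, from levels 62.7-fold and 24.3-fold above such a floor. Of 24 tested transcription regulators of drug transporters 6 rose and 9 fell in DU145 (median -0.05, or -0.08 without 1 gene under the floor), and 10 rose and 8 fell in PC3 (median 0.04). The hypoxia-inducible factor EPAS1 rose by 3.53 ± 0.11 in DU145 and 1.97 ± 0.11 in PC3, and HIF1A by 0.80 ± 0.05 and 0.35 ± 0.05. PPARA, a fatty acid receptor, fell by 1.19 ± 0.12 in DU145 and MAFF rose by 1.05 ± 0.08. In PC3 the estrogen receptor ESR1 rose by 3.41 ± 0.94 to 0.402 CPM. Its parental PC3 level of 0.0364 CPM rested on 7 summed counts, near the floor. The progesterone receptor PGR went from no count to 1.29 CPM there, 84.8-fold above a floor of 3 counts. MYCN went to no count from 0.204 CPM, 14.1-fold above such a floor. NFE2L2, which acts through antioxidant response elements, and the dioxin receptor AHR did not pass in either line (-0.01 ± 0.08 and -0.02 ± 0.07 in DU145, -0.14 ± 0.08 and -0.06 ± 0.06 in PC3). On the same list KEAP1 fell by 0.66 ± 0.06 in DU145 and rose by 0.42 ± 0.06 in PC3. BACH1 rose by 0.81 ± 0.07 in DU145 and 0.37 ± 0.07 in PC3. ARNT fell by 0.58 ± 0.04 in PC3, and AHRR did not pass in either line.

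A list of 14 channel subunits, scaffolds and partners of these transporters also holds the pseudogenes ABCC6P1 and ABCC6P2. Of these 14 genes 4 rose and 3 fell in DU145 (median -0.02), and 4 rose and 6 fell in PC3 (median -0.30). ABCC6P1 was among those that fell in PC3, from 10 summed counts to 0, near the floor. The kinase PIM1, which can phosphorylate ABCG2, rose by 1.52 ± 0.09 in DU145, and the scaffold PDZK1 fell by 1.29 ± 0.35. NT5E, which makes adenosine downstream of ABCC6, rose by 1.42 ± 0.05 in DU145 and fell by 2.27 ± 0.06 in PC3, where ABCC6 fell as well. ENPP1, which makes pyrophosphate from the released ATP, rose by 0.56 ± 0.11 in DU145 and 0.85 ± 0.11 in PC3. The floors behind the folds given above for genes without a count were 3 counts over a group. Such floors assume independent counts and are too low here, so those folds are not minimum folds.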

How the data were processed

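Poly(A)-selected RNA of 4 groups of 3 libraries was sequenced as paired ends from dUTP-marked libraries, per the labels' protocols. Trimming, alignment and assembly tools are listed in the submitters' processing notes without a role (HISAT2 2.0.4, StringTie 1.3.4d, cutadapt 1.9, edgeR, DESeq2), together with the build hg18. The gene coordinates fit GRCh38, since 37308 of the 37385 genes shared with GENCODE 29 overlap it. For each gene the authors deposited a count and an FPKM, and in the deposited tables FPKM was a fixed factor per gene times the count over the library total, to within 0.1% for all 11651 genes compared. Whether the counting used strand is not given in the sources used here. Totals of 62513103 to 72530254 counts make abundant members precise, and counting intervals and floors cover counting error only.

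Genes were filtered with filterByExpr (24128 left), libraries scaled with TMM, and 1 mean per group was fitted over 12 libraries (8 residual degrees of freedom) with edgeR 4.0.16 in R 4.3.3 (robust quasi-likelihood fit, two-sided F test, Benjamini-Hochberg). SE is the log2 change divided by the square root of F. CPM uses the TMM-scaled total, whereas floors use 3 counts over a group and raw library totals. Folds against floors divide a mean CPM by such a floor. The ABCG2 ratios between the lines with exact intervals use raw totals. Alternatives were other scalings (upper quartile, DESeq2 size factors), other filters, DESeq2 1.42.0, limma 3.58.1 on log2(FPKM + 1) and log2(FPKM + 0.1), only the groups compared, a replicate block, and each library left out. Named genes were all members, the 3 largest called changes of each pathway list and line, the 3 most similar genes, and adjacent expressed genes. Others were named where a sentence on a member or a regulator needs them. The members, lists and rules were chosen with earlier results of these data known. Some genes that these rules name are not reported here.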

Additional observations from a re-analysis of the deposited data

Results flagged for a closer look

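For 6 members the change with resistance differed between the lines by the interaction term of the edgeR fit, each with an adjusted p under 0.05. The log2 change in PC3 minus that in DU145 was 2.14 for ABCC2, -3.39 for ABCC3, 0.51 for ABCC4, -0.48 for ABCC5, -2.79 for ABCC6 and -1.34 for ABCC10. For ABCC3 and ABCC10 the called changes had opposite signs in the lines, and for the other 4 only the PC3 change was called. In all, 42.1% of the genes tested differed between the lines in this way, and ABCC6 may share reads with its pseudogene copies. With 1 resistant subline per line and different docetaxel doses, effects of line, selection and subline cannot be told apart.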

How the results depend on the processing

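The counts of calls kept within 1.5 times their main value in all 88 values under other settings and all 120 with 1 library left out. Without 1 library the genes called were 8675 to 9570 in DU145, 9737 to 10633 in PC3, 13760 to 14671 between the parental lines, 13577 to 14459 between the resistant lines and 9636 to 9875 for the interaction. Same-numbered libraries did not deviate together (correlations from -0.053 to 0.016 in DU145 and -0.106 to 0.073 in PC3). This shows no pairing by number but cannot exclude it. With the replicate block 9047, 10183, 14013, 13902 and 9685 genes and 3, 7, 7, 9 and 6 members were called, in the same order of comparisons. Upper-quartile scaling moved the median of all genes to -0.12 between the resistant lines, and all 9 members kept their direction there. Of 379 changes of single members under other settings, 371 kept direction and call. ABCC5 in DU145 turned to -0.018 with limma on log2(FPKM + 1) and -0.021 on log2(FPKM + 0.1). The interaction of ABCC9 was also called with limma on log2(FPKM + 1) (-0.83), where the offset exceeds its parental levels. With 1 library left out, 499 of 516 kept both, and the reversals were all of changes that were not called. They were within -0.029 to 0.026 for ABCC5, -0.029 to 0.13 for ABCC4 and -0.019 to 0.45 for ABCC6 in DU145, and -0.025 to 0.031 for ABCC1 in PC3. Between the parental lines they were within -0.078 to 0.25 for ABCC6 and -0.15 to 0.060 for ABCC10, and for the ABCC9 interaction within -0.70 to 0.60. ABCG2 against DU145 moved from -5.11 to -9.41 without parental PC3 library 1, and from -6.96 to -10.15 without resistant PC3 library 2, since the remaining PC3 libraries hold no count. ABCC6 between the resistant lines was -3.28 without resistant PC3 library 1. ABCC2, ABCC6, ABCC9 and ABCG2 are limited by depth in PC3.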
